A study of Mus musculus with 6 samples.

Results

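The surface molecules through which macrophages engage lymphocytes were followed across the 6 arrays of the study. The list held 10 genes for costimulation, activation and adhesion (Cd40, Cd80, Cd86, Cd83, Cd69, Cd274, Icam1, Cd44, Itgal and Vcam1), and all probes carrying these symbols in the platform annotation were taken. That gave 19 of 25697 probes for 9 of 16593 named genes, since no probe was named for Itgal, which was not analysed here. On at least 1 array 14 of the 19 probes and 9 of 9 genes were detected (detection p under 0.01). Cd83 and Vcam1 passed that filter through stimulated arrays and Cd80 through knockout arrays.

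RNA came from macrophages of female 129/BL6 mice, wild type or Irak2 knockout, differentiated from bone marrow over 5 days in medium conditioned by L929 cells. The cells were untreated or exposed for 2 h to R848 or CpG B at 1 µg/ml, which activate Toll-like receptors 7 and 9 through MyD88 and the IRAK kinases. Each of the 6 combinations of genotype and agent was hybridised to 1 Illumina bead array. The sources used here name neither the deleted part of Irak2 nor the number of mice behind a sample. Median intensity ran from 20.6 to 27.7 and the share of detected probes from 34.9% to 37.8%. The Irak2 probes read 342 and 534 untreated, 2594 and 3695 with R848 and 2117 and 2618 with CpG B on the wild-type arrays. In the knockout they read 338.5 and 378, 641 and 835, and 556 and 622, below wild type on every array. Whether these probes lie in the deleted part is not known here.

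A naive T cell needs a second signal beside its antigen receptor. CD80 and CD86 on the presenting cell deliver it by binding CD28, while CD274 (PD-L1) binds PD-1 and restrains the T cell. CD40 is the receptor through which helper T cells, by their CD40 ligand, raise the activity of macrophages and dendritic cells. CD83 and CD69 are early activation markers, of which CD83 limits the turnover of MHC class II and CD86 and CD69 holds lymphocytes in tissue by removing a sphingosine-1-phosphate receptor. ICAM-1 and VCAM-1 are immunoglobulin-family ligands of integrins (LFA-1, whose alpha chain is encoded by Itgal, and VLA-4), and CD44 binds the matrix sugar hyaluronan. Transcription of many of these genes is driven by NF-kB, the factor that Toll-like receptors switch on.

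The members parted into a set that was higher after both agents (Cd40, Cd69, Cd83, Cd274, Icam1 and Vcam1) and a set that moved little. The latter held Cd80, Cd86 and Cd44. Vcam1 was dim and not detected untreated, and its folds are known only as lower limits, from 1.24 to 2.22. In the knockout the 6 responsive genes were again above the untreated array, but all 6 were at a lower level after R848 than in wild type, whereas after CpG B they were on both sides of the wild-type level. Cd86 was higher in the knockout under every condition. Because each group is 1 array, a difference between arrays carries no p-value and was counted at a log2 difference of 1 (2-fold). A gene is said to have risen only where a limma fit over all 7149 detected genes gave an adjusted p under 0.05.

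**Figure D1:**
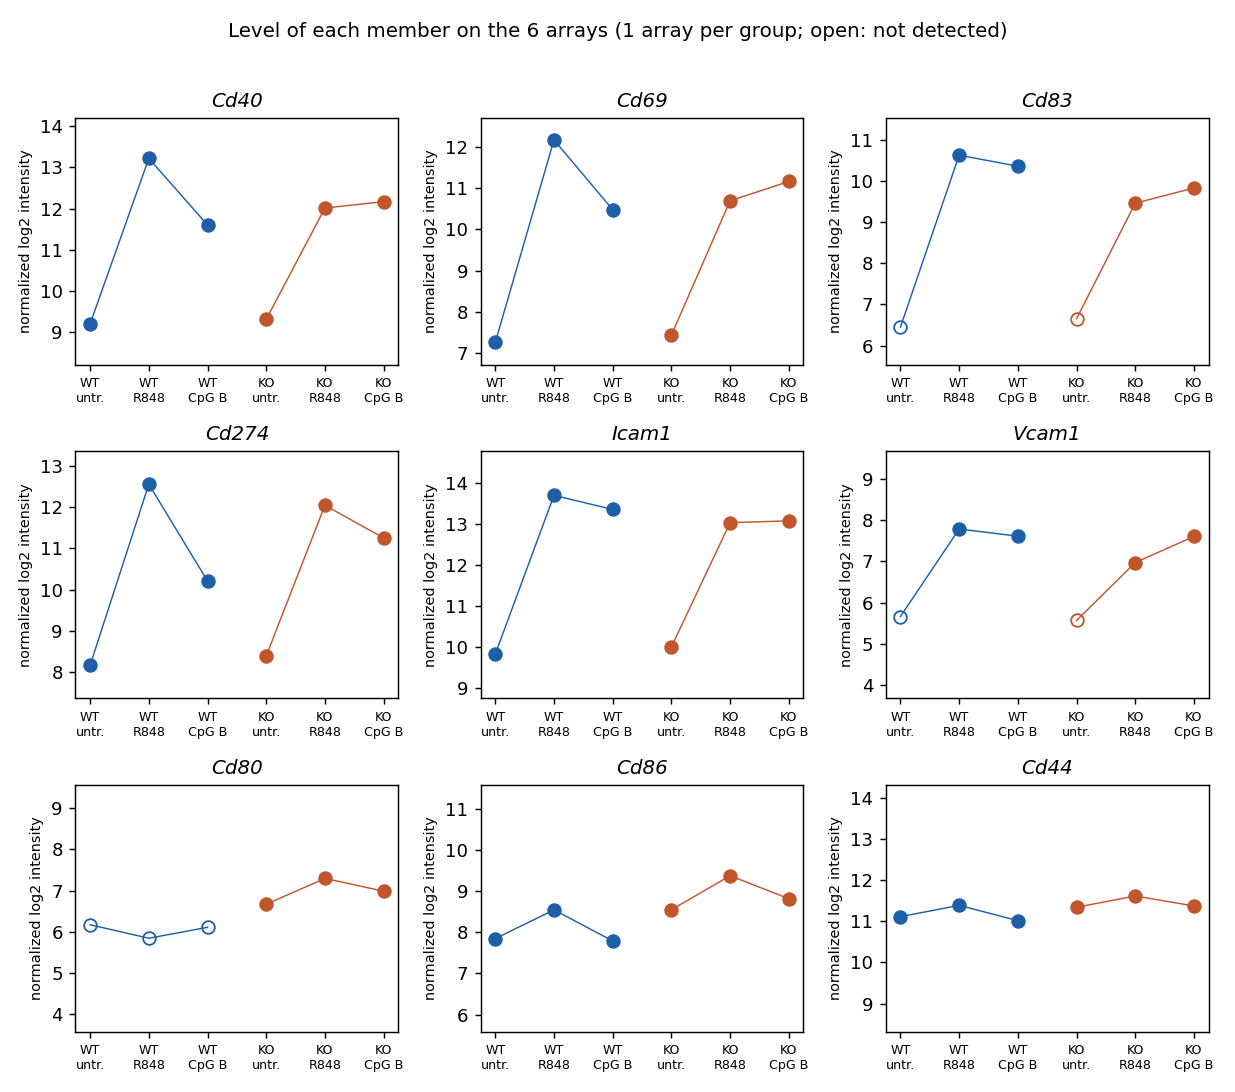
Normalized log2 intensity of the 9 members (vertical axes, all spanning the same range) on the 6 arrays, with wild type (WT) in blue and Irak2 knockout (KO) in orange, lines joining arrays of a genotype and open symbols where the probe was not detected. Cd40, Cd69 and Cd274 peaked in wild type after R848, and Cd80 was detected on the 3 knockout arrays alone.

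CD40, the receptor for T-cell help, was read by 4 probes. In wild type the brightest gave 601 untreated, 9978 with R848 and 3768 with CpG B, as intensities. In the knockout they were 687, 3728 and 3904 in the same order. The wild-type R848 array stood above all others, and the knockout gave nearly the same value for both agents. After normalization the R848 value was 16.2-fold higher than untreated in wild type and 6.52-fold higher in the knockout, and the CpG B value 5.30-fold and 7.27-fold higher. The other detected probes, annotated to other Cd40 transcripts, gave log2 differences of 3.98 and 3.15 after R848 in wild type against 3.01 and 2.01 in the knockout. The last Cd40 probe was not detected on any array.

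Cd69, an activation marker better known from lymphocytes, in wild type read 142 untreated, 4691 with R848 and 1709 with CpG B. The knockout arrays read 179.7, 1482 and 1917. R848 gave the higher value in wild type and CpG B the higher value in the knockout. The folds over untreated were 30.3 and 9.35 for wild type, and 9.61 and 13.3 for the knockout, with R848 and CpG B in turn. Its untreated level was the least steady among the members. A second untreated array per genotype, recovered from the submitters' normalized values, was lower than the first by 0.80 in wild type and 0.94 in the knockout on the log2 scale. Cd69 and Irak2 both lie on chromosome 6, and whether that bears on these values was not tested.

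For Cd83 the wild-type intensities were 74, 1474 and 1575 for untreated, R848 and CpG B, and the knockout intensities 96, 619 and 757. Neither untreated array detected it, so its folds are lower limits, at least 15.8 and 13.1 for wild type, and at least 6.97 and 9.0 in the knockout. Both agents gave close values within a genotype, and both knockout values were below those of wild type. Such a limit divides the bright value by the dimmest detected probe of the other array, or by the gene itself where that is higher.

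Cd274, the inhibitory ligand PD-L1, showed the widest gap between the agents. In wild type it read 282.5 untreated, 6048 with R848 and 1423 with CpG B, and in the knockout 357.5, 3818 and 2049. R848 was the stronger agent in both genotypes, with 21.1-fold against 4.14-fold in wild type and 12.7-fold against 7.30-fold in the knockout. The knockout was thus lower than wild type after R848 by 0.51 and higher after CpG B by 1.05 on the log2 scale.

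Among the adhesion molecules, Icam1 had wild-type intensities of 943 untreated, 13863 with R848 and 12375 with CpG B, and knockout intensities of 1085, 7456 and 7267. The agents gave near-equal values in each genotype, 14.5-fold and 11.4-fold over untreated in wild type and 8.11-fold and 8.36-fold in the knockout. Vcam1 was dim throughout, at 31, 173 and 222 on the wild-type arrays and 29.1, 102 and 153 on those of the knockout. It was not detected untreated, and its folds were at least 2.22 (R848) and 1.96 (CpG B) for wild type and at least 1.24 and 1.93 for the knockout. VCAM-1 is best known from endothelium, and 0 of 7 endothelial and stromal markers (Cdh5, Kdr, Tek, Col1a1, Col1a2, Pdgfrb and Dcn) were detected on any array. Of adhesion molecules that endothelium also carries, Pecam1 was detected on 1 array, Mcam and F11r on 4 each and Icam2 on all 6.

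The CD28 ligands moved less. Cd80 read 57.6, 34.2 and 62.2 on the wild-type arrays (untreated, R848 and CpG B), where it was not detected, and 97.4, 130.5 and 96.8 on the knockout arrays, where it was. The wild-type arrays read 224, 305.5 and 253 for Cd86, and the knockout arrays 402.5, 581 and 370.4. Every knockout value of Cd86 lay above every wild-type value in these intensities. Its log2 difference after R848 was 0.70 in wild type and 0.83 in the knockout, and after CpG B -0.06 and 0.27. The other Cd86 probes gave wild-type values of 0.93 and 0.94 and knockout values of 0.67 and 0.78 after R848.

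Cd44 was bright and flat, with wild-type values of 2274, 2609 and 2489 and knockout values of 2645, 2785 and 2230.5. Its log2 differences from untreated ran from -0.10 to 0.28 over both agents and genotypes. The other detected probe of Cd44 ran from -0.31 to 0.32, and 4 further probes were not detected on any array.

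**Figure D2:**
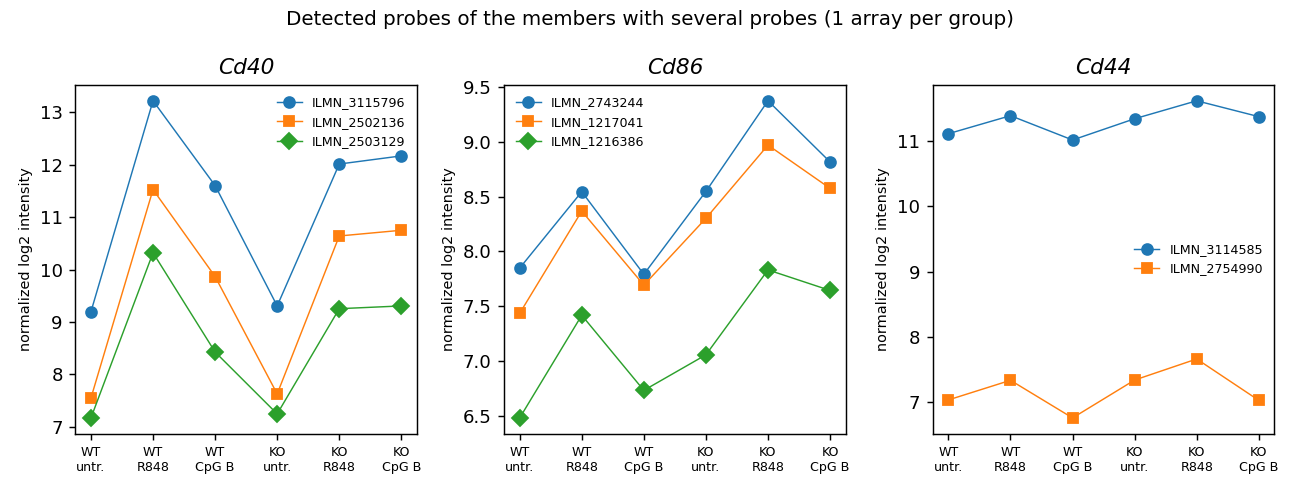
Normalized log2 intensity of every detected probe of Cd40 (3 probes), Cd86 (3) and Cd44 (2) on the 6 arrays (WT, wild type; KO, Irak2 knockout; untr., untreated), each line joining the values of 1 probe. All 3 Cd86 probes were higher on the knockout array than on the wild-type array of the same condition, by 0.41 to 1.03 on the log2 scale.

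Past the 2-fold size in wild type were the same 6 members after each agent, Cd40, Cd69, Cd83, Cd274, Icam1 and Vcam1, of 8 tested, and in the knockout these 6 of 9. For Vcam1 this counts normalized values against an undetected untreated level, and its limits above reach 2-fold only with R848 in wild type. Over all genes in wild type 7.7% were higher by 2-fold or more with R848 and 3.64% with CpG B, and in the knockout 5.77% and 4.64%. Both responses of a genotype share its untreated array.

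Averaged over the genotypes in an additive limma model of the 6 arrays, 7 of 9 members rose with R848 and 6 with CpG B, where 12.1% and 4.7% of all genes rose. No member fell with either agent, and 17.3% and 3.99% of all genes did. Of these members 5 and 4 were detected on both untreated arrays. Each group is 1 array, so the spread of this fit is what the additive model leaves over, and any interaction adds to it. Icam1 rose by 3.44 on the log2 scale with R848 (SE 0.211, adjusted p = 0.00172) and by 3.29 with CpG B (adjusted p = 0.00316). Cd69 rose by 4.09 and 3.48 (SE 0.490, adjusted p = 0.00486 and 0.017) and Cd274 by 4.03 and 2.46 (SE 0.348, adjusted p = 0.00244 and 0.0171). Cd40 rose by 3.36 and 2.63 (SE 0.404, adjusted p = 0.00491 and 0.0207). Cd83 (adjusted p = 0.00267 and 0.00589) and Vcam1 (adjusted p = 0.0053 and 0.00923) were called too, but they entered the fit through the stimulated arrays alone, and their sizes are known only as the limits above. Cd86 rose with R848 by 0.76 (SE 0.135, adjusted p = 0.013), and for CpG B its value was 0.11 (adjusted p = 0.654). For Cd80 and Cd44 limma's adjusted p was 0.655 and 0.139 with R848. Without the wild-type untreated array limma called 0 members for either agent (2 and 4 of all genes), and without the knockout untreated array 2 for R848 and 0 for CpG B (27 and 1 of all genes). With the recovered untreated arrays added, 7 and 6 members rose again, where 15.7% and 8.46% of all genes did. Without the knockout CpG B array 2 members were called for CpG B (97 of all genes).

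**Figure D3:**
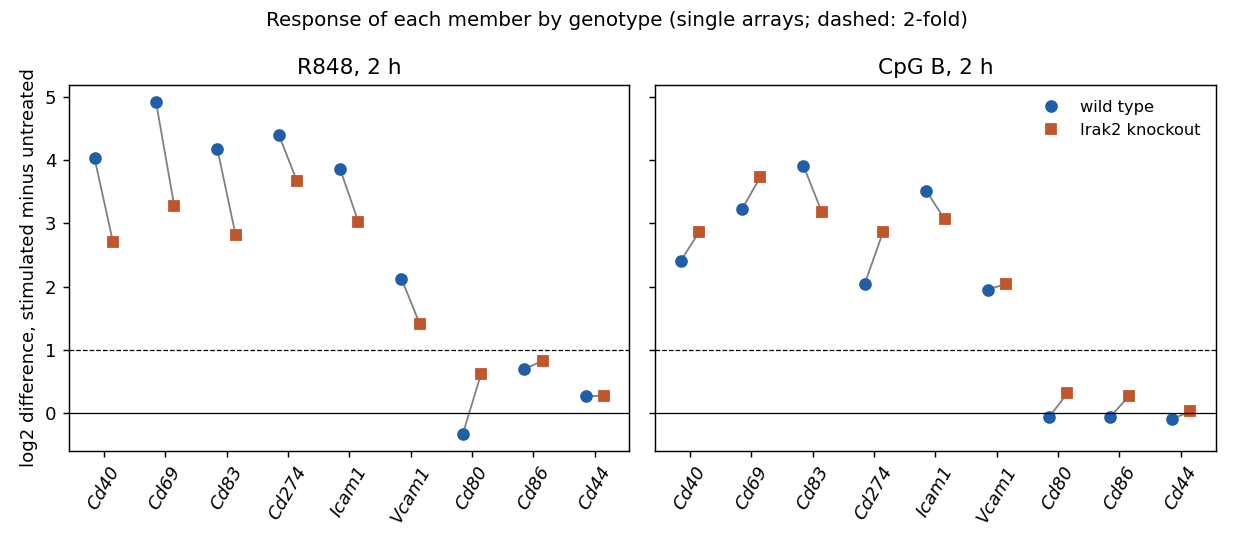
Log2 difference between the stimulated and the untreated array of the same genotype (vertical axis) for each member after R848 (left) and CpG B (right), with circles for wild type, squares for Irak2 knockout and a dashed line at 2-fold. After R848 the knockout squares of Cd40, Cd69, Cd83, Cd274, Icam1 and Vcam1 lie below the wild-type circles, and after CpG B those of Cd40, Cd69, Cd274 and Vcam1 lie above them. Cd83 and Vcam1 were not detected untreated.

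The difference between the genotypes' responses was taken as the knockout response minus the wild-type response, which uses 4 arrays. For R848 it was -1.66 for Cd69, -1.32 for Cd40, -0.84 for Icam1 and -0.74 for Cd274. On the normalized values 3 of 9 members were lower by 2-fold or more, against 2.15% of all genes, the third being Cd83. The responses of Cd83 and Vcam1 are limits and those of Cd80 start below detection in wild type, so their differences have no exact value. Cd86 stood at 0.13 and Cd44 at -0.0007, and 0 members were higher by 2-fold, against 1.17% of all genes. For CpG B the values were 0.82 for Cd274, 0.51 for Cd69 and 0.46 for Cd40, but -0.45 for Icam1, and 0 members passed 2-fold in either direction, against 1.26% of all genes. These differences failed the tests that could be made. An interaction shared by both agents, fitted by limma on 6 arrays with 1 residual degree of freedom, called 0 of 7149 genes (0%), of which 136 had an unadjusted p under 0.05, 1 member among them (Cd83).

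An added limma fit used 8 arrays, with a second untreated array per genotype, and takes the spread of the untreated pairs to hold for stimulated arrays too. It did not use the normalized values above. It ran on intensities mapped to the distribution of the submitters' processed values, with negative ones set to 0 and an offset of 16 before log2. It called 11 genes (0.154%) for the difference of R848 responses and 0 (0%) for that of CpG B, with no member in either. For R848 its difference was -1.21 for Cd40 (SE 0.353, adjusted p = 0.364), -1.55 for Cd69 (SE 0.655, adjusted p = 0.591) and -0.74 for Icam1 (SE 0.201, adjusted p = 0.335). At an unadjusted p under 0.05 it counted 4 members and 645 genes for R848, and 0 members and 305 genes for CpG B. An adjusted p above the threshold does not show that the responses were alike.

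The log2 differences between R848 and CpG B, at matched dose and time, do not use the untreated arrays. The p-values below do, since the 8-array fit takes its whole spread from the untreated pairs, of which 1 array each was recovered. Each stimulated group is 1 array, so no spread between stimulated arrays was measured. In wild type R848 gave the higher value for Cd274 by 2.35, Cd69 by 1.70 and Cd40 by 1.62 on the log2 scale, 3 of 8 tested members past 2-fold, against 3.65% of all genes. In the knockout 0 of 9 members passed 2-fold in either direction, against 0.222% of all genes, and the values were 0.79 for Cd274, -0.47 for Cd69 and -0.16 for Cd40. Icam1 gave 0.34 and -0.04 and Cd83 0.27 and -0.37. The wild-type gap minus the knockout gap, from the 4 stimulated arrays, was 2.16 for Cd69, 1.77 for Cd40 and 1.56 for Cd274, 3 of 9 members past 2-fold, against 2.97% of all genes. The 8-array limma fit called Cd274 (adjusted p = 0.012) and Cd40 (adjusted p = 0.0351) for the agent difference in wild type, where 2.67% of all genes were called higher. On the 6366 genes detected on both untreated arrays it called 4 members, adding Cd69 (adjusted p = 0.0357) and Cd86 (adjusted p = 0.0285), against 3.55% of those genes. In the knockout it called 0 genes (0%), and 229 genes and 3 members had an unadjusted p under 0.05. For the gap between genotypes limma called 0 members and 0.364% of all genes, with an adjusted p of 0.209 for Cd40, 0.247 for Cd274 and 0.413 for Cd69. At an unadjusted p under 0.05 that gap counted 4 members and 718 of 7149 genes.

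Comparing the genotypes within a condition, 0 of 7 tested members differed by 2-fold untreated, against 2.16% of all genes. Among the 4 responsive genes detected untreated the log2 differences, knockout minus wild type, ran from 0.11 for Cd40 to 0.23 for Cd274. After R848 the knockout was lower by 2-fold or more for Cd69 (-1.48), Cd40 (-1.21) and Cd83 (-1.17), 3 of 9 members against 2.48% of all genes. Cd80 was the only member higher by that size (log2 difference 1.45, against 2.2% of all genes), but it was not detected in wild type, and the lower limit of its fold was 1.40. After CpG B Cd274 (1.05) and Cd86 (1.03) were higher by 2-fold or more, against 1.65% of all genes, and 0 members were lower by 2-fold, against 1.08%. With median scaling in place of quantile normalization 0 members passed 2-fold after CpG B.

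**Figure D4:**
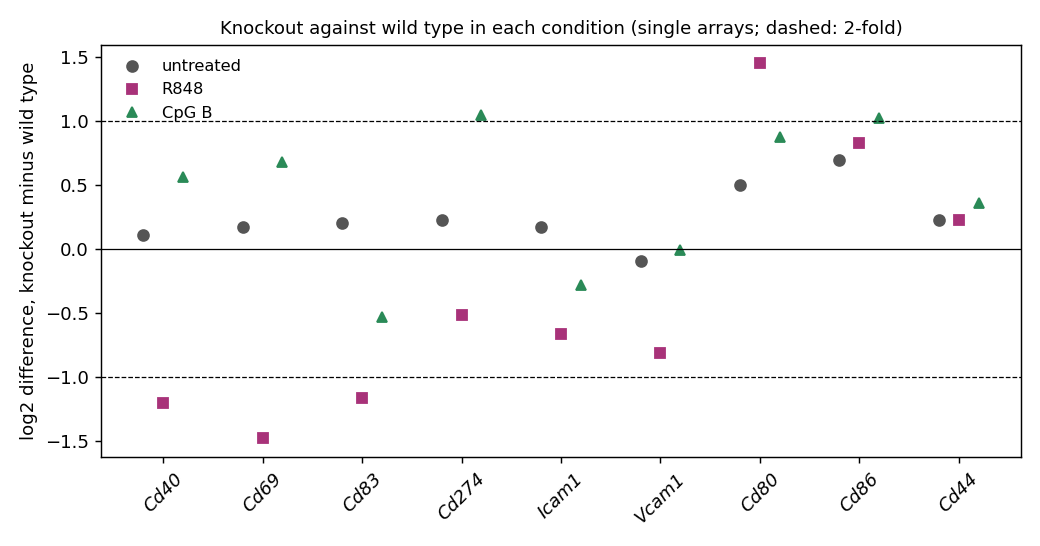
Log2 difference between the knockout and the wild-type array of the same condition (vertical axis) for each member, with circles for untreated, squares for R848 and triangles for CpG B, and dashed lines at 2-fold. Cd80 and Cd86 were above 0 in all 3 conditions, and the 6 genes at the left were below 0 after R848.

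Averaged over the 3 conditions, limma's genotype effect was 0.85 for Cd86 (SE 0.110, adjusted p = 0.02), the only one of 9 members called higher in the knockout (1.76% of all genes were), and 0 were called lower (1.64% of all genes). By condition the Cd86 difference stood at 0.70 (untreated), 0.83 (R848) and 1.03 (CpG B). Its other probes gave 0.87, 0.60 and 0.88, and 0.58, 0.41 and 0.91. Cd80 entered the fit through the knockout arrays alone, and its fold of knockout over wild type was at least 1.02 (untreated), 1.40 (R848) and 1.45 (CpG B). The 8-array fit called Cd86 and Cd80 for genotype, where 3.64% of all genes were called higher, and for Cd80 that call sets detected against undetected arrays. Cd86 and Cd80 both lie on chromosome 16, and whether their differences are linked was not tested. The 8-array limma fit also called Cd86 higher in untreated knockout cells (0.66, adjusted p = 0.0473), where 1.27% of all genes were called higher. The Cd86 call was lost when any of 4 arrays, untreated or CpG B of either genotype, was left out of the 6. The p-values of the 6-array fit rest on what its additive model leaves over, not on replicates. No source says that the samples are separate animals, so neither fit is known to measure a spread between animals. That of the untreated pairs in the 8-array fit may be technical.

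Like Cd86, the MHC class II genes H2-Ab1 and H2-Eb1 were higher in the knockout, by 1.50 and 1.53 (limma, adjusted p = 0.0038 and 0.00302). Unlike Cd86 and Cd80, they rose with both agents, by 0.77 and 0.71 with R848 and 0.81 and 0.74 with CpG B. They were the 2 detected of 8 dendritic-cell markers, and the defining Flt3, Zbtb46, Ccr7, Cd209a, Xcr1 and Clec9a were not detected on any array. The summed intensity of that list was 1489 to 3181 on the wild-type arrays and 4655 to 6262 on the knockout arrays. Of 7 neutrophil and precursor markers limma called 4 lower in the knockout (S100a9, Ngp, Camp and Ltf). Of the others, S100a8 stood at -0.54 (limma, adjusted p = 0.0796), Elane at 0.01 and Mpo, in the other direction, at 0.59 (adjusted p = 0.0605). The list summed to 17260 to 19171 in wild type and 8417 to 12880 in the knockout, with S100a8 its brightest gene. The part of these marker lists in the Cd86 and Cd80 results was not tested, and fewer cells of a type and less RNA per cell cannot be told apart in bulk RNA. The macrophage markers Adgre1, Lyz2, Fcgr1 and Itgam were detected on all 6 arrays and Mertk on 2. Their intensities summed to 51950 to 56276 in wild type and 39863 to 45330 in the knockout. The sums of all these lists are of intensities without normalization. After normalization limma called 0 of the 5 macrophage markers for genotype. The brightest, Lyz2 and Adgre1, stood at -0.07 and -0.12 (limma, adjusted p = 0.80 and 0.56), and Fcgr1 was the lowest at -0.57 (adjusted p = 0.28). The lower sums in the knockout therefore do not by themselves show less macrophage marker RNA. Of the reference genes 0 of 7 were called for any effect.

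Promoter sequence was at hand for 4 members, and is shown because Icam1 and Cd274 rose with both agents while Cd80 and Cd44 were not called for either. Each run is 250 bases before to 50 after the start of the gene on its own strand (RefSeq, GRCm38.p6), at chr9:21015690-21015989 (+) for Icam1, chr19:29367188-29367487 (+) for Cd274, chr16:38458683-38458982 (+) for Cd80 and chr2:102901616-102901915 (-) for Cd44. Capitals mark matches, on either strand, to GGNNNTTCC (NF-kB, with a longer form that has 1 more G before it), TTCNNNGAA (STAT), GAAA, any 2 bases and GAAA (interferon response element) and TGANTCA (AP-1).
Icam1: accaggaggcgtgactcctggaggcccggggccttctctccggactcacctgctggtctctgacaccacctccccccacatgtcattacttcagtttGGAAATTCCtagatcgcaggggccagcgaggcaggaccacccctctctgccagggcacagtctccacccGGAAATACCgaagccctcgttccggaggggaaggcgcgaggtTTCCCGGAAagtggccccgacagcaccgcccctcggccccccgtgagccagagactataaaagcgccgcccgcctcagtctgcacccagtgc
Cd274: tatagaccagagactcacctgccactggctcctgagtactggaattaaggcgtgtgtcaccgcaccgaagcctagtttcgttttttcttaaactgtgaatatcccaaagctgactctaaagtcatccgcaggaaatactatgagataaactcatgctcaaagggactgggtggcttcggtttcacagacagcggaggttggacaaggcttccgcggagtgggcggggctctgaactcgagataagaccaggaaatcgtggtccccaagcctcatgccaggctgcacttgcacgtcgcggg
Cd80: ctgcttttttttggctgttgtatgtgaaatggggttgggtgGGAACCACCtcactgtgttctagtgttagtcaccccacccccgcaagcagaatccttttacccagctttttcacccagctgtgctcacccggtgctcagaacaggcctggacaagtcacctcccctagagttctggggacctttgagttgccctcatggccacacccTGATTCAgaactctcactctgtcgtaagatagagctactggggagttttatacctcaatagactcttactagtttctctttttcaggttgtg
Cd44: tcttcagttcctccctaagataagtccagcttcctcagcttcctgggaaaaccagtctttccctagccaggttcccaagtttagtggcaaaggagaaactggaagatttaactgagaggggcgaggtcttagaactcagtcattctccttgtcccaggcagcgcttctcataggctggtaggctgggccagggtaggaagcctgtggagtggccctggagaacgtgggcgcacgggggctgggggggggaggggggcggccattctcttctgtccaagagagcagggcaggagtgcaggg

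Icam1 held the shorter NF-kB form at positions -153 (GGAAATTCC) and -84 (GGAAATACC as printed, a match on the other strand) and the STAT form at -42, counted from the start site. Cd80 held the shorter NF-kB form at -209, on the other strand, and the AP-1 form at -42. Cd274 and Cd44 had no match in this window. Of 32851 promoters of that length 18.5% hold the shorter NF-kB form, 5.56% the longer, 8.3% the STAT form, 3.44% the interferon form and 7.81% the AP-1 form. A match describes letters and not binding.

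The genes whose profile over the 6 arrays was nearest to a member, by the root mean square difference of centred log2 values, were found among 7140 other genes. Arg2, a mitochondrial arginase, was nearest to Cd274 (0.06). On the untreated arrays Arg2 stood at 4.87 (wild type) and 4.97 (knockout), below the lowest detected values of 6.64 and 6.66. The I-kappa-B family member Bcl3 was nearest to Cd40 (0.20) and the stress-response gene Gadd45b to Cd69 (0.19). Gadd45b was likewise below that limit on both untreated arrays and Bcl3 on that of the knockout, so these 3 distances rest in part on values near background. Nfkbia, the inhibitor of NF-kB, was nearest to both Icam1 (0.17) and Cd83 (0.32), followed in each case by Lacc1. Swap70 was nearest to Vcam1 (0.20), Dclre1b to Cd80 (0.12), Mcf2l to Cd86 (0.16) and Ddx18 to Cd44 (0.06). Cd83 and Vcam1 were not detected on the untreated arrays, nor Cd80 on the wild-type arrays. The distances of Cd83, Vcam1 and Cd80 therefore also rest in part on values near background. For flat profiles such as that of Cd44 small distances are common, so they do not single out a gene.

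Partners of the members were followed in lists drawn up from general knowledge, to be read against the 12.1% of all genes that rose and 17.3% that fell with R848 and the 4.7% and 3.99% with CpG B. Of 8 detected genes of CD40 signalling 5 rose with R848 and 4 with CpG B and 0 fell, with a median log2 effect of 1.96 and 1.42 against -0.08 and -0.04 over all genes. The adaptor Traf1 rose by 4.64 and 3.99, and the non-canonical NF-kB subunits Nfkb2 by 3.26 and 2.75 and Relb by 3.26 and 2.90. Relb and Birc3, which rose with both agents, were detected on 4 arrays each, and Traf2, which rose with R848, on 3. None of these was detected on an untreated array, so they entered the fit through stimulated arrays alone. Their sizes are not exact, and the counts of genes that rose rest in part on that filter. Traf6, which CD40 shares with Toll-like receptors, stood at 0.18 and 0.09 (limma, adjusted p = 0.363 and 0.71).

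Another list held B7-family and other costimulatory or co-inhibitory ligands and receptors. Among its 8 detected genes R848 counted 3 that rose and 1 that fell, and CpG B 3 that rose, with medians of 0.48 and 0.41. Btla, an inhibitory lymphocyte receptor, rose by 1.92 and 1.95, the nectin-like Pvr by 1.49 and 0.78, and the phagocytosis inhibitor Cd47 by 0.67 and 0.55. Btla and Pvr were each detected on 4 arrays and on neither untreated array, so their sizes are not exact. They entered the fit through stimulated arrays alone, and the counts of genes that rose rest in part on that filter. The checkpoint receptor Havcr2 (TIM-3) fell by 1.52 with R848. The B7-family genes of that list with a probe, Pdcd1lg2 (the second PD-1 ligand), Cd276 and Vtcn1, were not detected on any array. Of 3 detected TNF-family costimulators 1, Tnfsf14, fell with R848, by 1.37. Tnfsf14 was detected on neither R848 array, so the size of its fall is not exact. Of 5 detected SLAM-family genes Slamf7 rose with both agents (4.07 and 2.97) and Ly9 with R848 (1.37). Slamf7 was not detected on the wild-type untreated array.

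With R848, 2 of 8 detected integrin subunits rose and 2 fell. For CpG B the counts were 1 and 2, with medians of 0.20 and 0.14. The fibronectin receptor chain Itga5 rose by 1.24 and 1.36, and Itgb1 rose with R848 by 0.48, while the laminin receptor chain Itga6 fell by 1.13 and 0.83 and Itgb5 by 1.08 and 0.94. Itgb2, the beta chain that pairs with the Itgal product, stood at 0.17 and 0.23 (limma, adjusted p = 0.369 and 0.316), and Itga4, the VLA-4 alpha chain, was not detected on any array. Of 6 detected immunoglobulin-family adhesion molecules and selectins Mcam rose with both agents (1.19 and 0.98) and Pecam1 with R848 (1.24). Mcam was detected on 4 arrays and Pecam1 on 1, none of them untreated, so these sizes are not exact. Both entered the fit through stimulated arrays alone. The constitutive ICAM-1 relative Icam2 fell with R848 by 0.43. The list medians were -0.09 and -0.13.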

How the data were processed

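The authors deposited 1 bead intensity per probe and array without normalization (BeadStudio is the tool in the submitters' processing notes), and a detection p-value per probe per the file headers. Of the intensities on an array 33.4% to 34.4% were below 0. They also deposited a processed intensity, linear and quantile normalized as read from the values, whose untreated columns were taken to be means of 2 arrays: 99.7% of the values recovered for the other array lay, once sorted, within 0.5 units of the common distribution in each genotype. Probes were named through the platform annotation.

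In R 4.3.3 with limma 3.58.1, neqc (normexp from detection p-values, offset 16, quantile) gave log2 values. The probe with the highest mean represented a gene. Genes detected (p under 0.01) on 1 or more arrays of a comparison were tested. Fits used lmFit and eBayes with Benjamini-Hochberg adjustment over 7149 genes, and were tested on simulated data. The number of arrays, 1 per group, limits the precision. Detection ran from 34.9% to 37.8% of probes per array. Alternatives were median scaling, no background correction, the processed values, no filter, all probes averaged, each array left out, no genotype term and 8 arrays.

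The members and lists were chosen with earlier results of these data known. Genes named from a list were up to 3 per direction with the largest effect of either agent among those called, and any marker. Traf2, Traf6, Birc3, Itgb2, Itga4, Pdcd1lg2, Cd276 and Vtcn1 were chosen after their values were seen. So were the genes named for a genotype effect outside the marker lists.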

Additional observations from a re-analysis of the deposited data

Results flagged for a closer look

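Some members had single-array responses of opposite sign in the genotypes. For Cd80 the log2 difference after R848 was -0.33 in wild type and 0.63 in the knockout, and after CpG B -0.063 and 0.32. Cd80 was not detected on the wild-type arrays, so these values have no exact size there. The 8-array limma fit gave an adjusted p of 0.318 for the R848 difference and 1 for that of CpG B. For Cd86 the CpG B response was -0.057 in wild type and 0.27 in the knockout, and for Cd44 it was -0.096 and 0.032. The adjusted p of the same fit was 1 for both.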

How the results depend on the processing

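Median scaling moved the median of all genes between untreated genotypes from -0.02 to -0.17. Of members past 2-fold between genotypes after CpG B, 2 became 0 with median scaling and 1 with all probes averaged. Calls for CpG B went from 6 to 3 with no detection filter, where the adjusted p was 0.0728 for Cd40, 0.0645 for Cd69 and 0.0633 for Cd274. Calls for genotype went from 1 to 2 with 8 arrays (Cd80, undetected in wild type), and over all genes from 243 to 527. Leaving out 1 array gave 0 to 7 calls for R848, 0 to 6 for CpG B and 0 to 1 for genotype. Without a genotype term Cd86 lost its R848 call (adjusted p = 0.295), and with the processed values Cd44 gained one (0.40, adjusted p = 0.0397).

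Small effects changed sign. For Cd44 the CpG B effect became 0.022 with median scaling, 0.10 with processed values, 0.11 in both 8-array fits and 0.032 without the wild-type CpG B array. The shared interaction became -0.046 for Cd274 with median scaling and -0.10 for Cd44 with all probes averaged. Leaving out 1 array in turn, the genotype effect ran from -0.55 to 0.34 for Cd40, -0.65 to 0.43 for Cd69 (positive without either R848 array) and -0.14 to 0.64 for Cd274 (negative without either CpG B array). The Cd80 effect ran from -0.23 to 0.53 for R848 (negative without the knockout untreated or R848 array) and from -0.21 to 0.46 for CpG B (negative without the knockout untreated array). The CpG B effect of Cd86 ran from -0.024 to 0.24 (negative without the knockout untreated or CpG B array). The cause was not tested. The 8-array fit on genes detected on both untreated arrays and the 8-array response contrasts were chosen after seeing the data. No paired analysis was possible because the labels carry no replicate numbers and each group has 1 array.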

Other observations

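Among 7 detected hyaluronan and CD44 partner genes, 1 rose and 3 fell with R848 in the additive limma fit, where 12.1% of all genes rose and 17.3% fell. For CpG B limma called 0 of them and 621 of 7149 genes, and 1979 genes had an unadjusted p under 0.05. The linker protein Ezr, which ties CD44 to actin, rose by 0.92, the hyaluronidases Hyal1 and Hyal2 fell by 2.33 and 0.78, and the scavenger receptor Stab1 fell by 0.45. Hyal1 was detected on 3 arrays and on neither R848 array, so the size of its fall is not exact. Of 9 detected tetraspanins, membrane organisers, Cd82 rose by 1.59 with R848 and 1.45 with CpG B, and Cd81 fell with R848 by 0.55.

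Between the genotypes, the integrin chain Itgb7 was higher in the knockout by 0.82 (limma, adjusted p = 0.0166). The checkpoint receptor Tnfrsf14 was called lower (log2 difference -1.79, limma, adjusted p = 0.0313). It was detected only on the 2 stimulated wild-type arrays and entered the fit through them. That call sets detected against undetected arrays, and its size is not exact. Stab1 was higher by 0.66 (adjusted p = 0.0362). Cd28, usually a T-cell receptor, was detected on all 6 arrays and fell with R848 by 1.73, while the T-cell genes Cd3e, Cd3g, Cd4, Cd8a, Ctla4, Icos and Cd40lg were not detected on any array. Of the B-cell markers Cd79b alone and of the NK-cell markers Prf1 alone was detected.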
